A study of Mus musculus with 14 samples.

Results

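The miR-17-92 and miR-106b-25 clusters are sister groups of miRNA stem-loops that sit in very different host genes. The first lies in Mir17hg, a non-coding RNA gene, and the second lies in Mcm7, which encodes a subunit of the replicative DNA helicase. Cleavage at these clusters was read from Degradome-seq of mouse embryonic stem cells (ESCs), a method that ligates a linker to polyA-tailed RNA with a 5′ monophosphate, so that a read starts at the cut end. Every pile-up site, a position where many reads start, was taken if its deposited gene annotation named Mir17hg, Mir106b, Mir93, Mir25 or Mcm7. This gave 5 sites among 5990 distinct sites. The table of the Drosha comparison held 4 of them among 3919 sites, the table of the Dicer comparison held 5 among 4666, and 4 were in both. In the RNA-seq table, rows were found for Mir17hg, Mcm7 and Mir106b among 22376 genes and none for Mir93 or Mir25.

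Canonical miRNAs are made in steps. Drosha, an RNase III enzyme, cuts the stem-loop out of the primary transcript in the nucleus, Dicer removes the loop in the cytoplasm, and an Argonaute protein is then guided to target mRNAs by bases 2 to 8 of the mature miRNA, the seed. The miR-17-92 cluster, known as oncomiR-1, promotes proliferation and restrains apoptosis, and its relatives miR-106b-25 and miR-106a-363 arose by duplication. Because the method keeps the polyA-tailed side of a cut, a cleaved stem-loop appears as a stack of reads that begins just after the 3p arm.

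The Drosha line was Drosha fl/fl with CreERT2 in the Rosa26 locus. Its control cells were untreated, and its Drosha-deficient cells received 100 nM 4-hydroxytamoxifen for 72 h and were analysed 48 h after removal. The Dicer line was Dicer fl/fl, and both of its groups were transduced with a retrovirus, carrying GFP in the control cells and GFP with Cre in the Dicer-deficient cells. GFP-positive cells were sorted at day 3 and cultured for 2 more days. Each of these 4 groups had 2 Degradome-seq libraries, and RNA-seq was made from 3 control and 3 Drosha-deficient libraries of the Drosha line. In the Drosha line, drug exposure and loss of the gene cannot be told apart, and all cells grew on inactivated mouse fibroblasts. The labels do not say whether replicates were separate cultures, so the p-values measure only the spread between these libraries. In such bulk samples, fewer cells making a transcript and less transcript per cell cannot be told apart.

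The Degradome-seq values were deposited as RPM, the reads that start at a site scaled to 1000000 mapped reads. The libraries held between 28682300 and 34547609 mapped reads, as given by the step between neighbouring RPM values, and a floor of 3 reads corresponded to 0.0868 to 0.105 RPM, for counting error only. Between the control libraries, the first exceeded the second at the median site by 0.32 on the log2 scale in the Drosha table and by 0.37 in the Dicer table. The authors measured Drosha and Dicer mRNA and selected mature miRNAs by quantitative RT-PCR, and reported loss of canonical miRNAs after each deletion. In the values used here, deletion of Drosha could not be checked library by library, since the RNA-seq values are means over all 6 libraries. Deletion of Dicer1 could not be checked because these libraries are all of the Drosha line. In those means the 10 ESC markers ranged from 6.14 log2 CPM for Utf1, where CPM counts reads per 1000000 counted reads, to 10.2 for Dppa5a, and the 10 fibroblast markers from −0.63 for Lum to 11.2 for Fn1, with medians of 8.78 and 3.14. The part of feeder cells in the results below was not tested.

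With 1 chosen mature arm per stem-loop, the miRNAs of the 9 stem-loops fall into 4 seed families. They are shown here because the paralogous clusters have seed families in common. The opposite arms, which have other seeds, were left out. The sequences are from RefSeq, 5′ to 3′, with the seed in capitals. The AAAGUGC family came from 4 of the 9 stem-loops.
miR-17-5p: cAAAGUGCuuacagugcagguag
miR-20a-5p: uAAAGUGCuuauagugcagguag
miR-106b-5p: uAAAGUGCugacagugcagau
miR-93-5p: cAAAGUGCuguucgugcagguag
The AAGGUGC family differs from it by a single seed base and has 1 member here.
miR-18a-5p: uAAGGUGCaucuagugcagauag
The GUGCAAA family has 2 stem-loops, both in Mir17hg.
miR-19a-3p: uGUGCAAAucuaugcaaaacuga
miR-19b-3p: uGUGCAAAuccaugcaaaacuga
The AUUGCAC family has 1 stem-loop in each host.
miR-92a-3p: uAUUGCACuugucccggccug
miR-25-3p: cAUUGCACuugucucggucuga

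Pile-up sites were found at 5 of the 9 stem-loops, namely Mir19a, Mir19b-1 and Mir92-1 of Mir17hg and Mir106b and Mir25 of Mcm7. None was listed at Mir17, Mir18, Mir20a or Mir93. By seed family, sites were listed at 2 of 2 GUGCAAA stem-loops, 2 of 2 AUUGCAC stem-loops, 1 of 4 AAAGUGC stem-loops and 0 of 1 AAGGUGC stem-loops. The tables hold only positions that a classifier trained on miRNA sites accepted in control cells, so a stem-loop without a site may still have been cut. The X-linked miR-106a-363 cluster, the remaining paralog, had sites at 2 of its 6 stem-loops, Mir19b-2 and Mir92-2. Over the 3 clusters, sites were therefore listed at 3 of 3 GUGCAAA and 3 of 4 AUUGCAC stem-loops, against 1 of 6 AAAGUGC and 0 of 2 AAGGUGC stem-loops. These counts are descriptions of 15 stem-loops and were not tested. Family also goes with position, since an AAAGUGC stem-loop is first and an AUUGCAC stem-loop last in each cluster. A cut further downstream on the same RNA takes the polyA tail from the fragment of an upstream cut. The parts of seed family and position in these counts were not tested.

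The 3′ cleavage fragments begin at the following positions of GRCm38. Their first 30 bases are given because they show where each cut fell and tell apart the copies that make the same mature miRNA. Capitals mark a CNNC motif, where present, whose first C is at base 16 to 18 of the fragment.
Mir19a, chr14:115044071-115044100, plus strand: tggtggcctgctatttaCTTCaagtgttgt
Mir19b-1, chr14:115044381-115044410, plus strand: ctgtggtggtgaaaagtctgtagagaagta
Mir92-1, chr14:115044498-115044527, plus strand: tgagtttggtggggattgtgaccagaagat
Mir106b, chr5:138165716-138165745, minus strand: tccagcagggcacgtgCAACgcccatggag
Mir25, chr5:138165302-138165331, minus strand: cagtgccggcccaacaCTGCagatgtgggg
Mir19b-2, chrX:52741961-52741990, minus strand: ttgtgggaatgtgtacctttctgcatcgta
Mir92-2, chrX:52741823-52741852, minus strand: ggaagaaagagggtttttaatcgtctttta
Each of these runs of 30 bases occurs once in the genome, so reads from Mir19b-1 and Mir19b-2 can be separated although both make miR-19b-3p, and the same holds for Mir92-1 and Mir92-2. The fragment began 1 nt after the annotated 3p arm at Mir19a, Mir19b-1, Mir106b, Mir25 and Mir19b-2, and 2 nt after it at Mir92-1 and Mir92-2. The CNNC motif, a docking site of the splicing factor SRSF3 that is known to promote Drosha processing, was sought on the transcribed strand only and overlaps no other motif searched. It stood at base 18 for Mir19a and at base 17 for Mir106b and Mir25, and was not in this window at Mir19b-1, Mir92-1, Mir19b-2 or Mir92-2. Of all sites, 19.2% in the Drosha table and 15.5% in the Dicer table held it there, against 59.1% and 59.5% of the sites in annotated miRNA genes. Counted from the base after the 3p arm, it was also present at all 4 stem-loops of the 2 clusters without a listed site, which makes 7 of 9, and at 0 of 6 stem-loops of the X-linked cluster.

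The hosts place their stem-loops in different kinds of sequence. The GENCODE annotation puts the Mir17hg sites in exon 2 of 2 of the lincRNA, whose gene spans chr14:115042879-115046727. The Mir106b and Mir25 sites lie in intron 13 of the 15-exon Mcm7 transcript, gene span chr5:138164583-138172422, and in intron 8 of a shorter coding transcript. The Mir25 site is also in exon 1 of a retained-intron transcript of Mcm7. No site was listed in the coding or untranslated exons of Mcm7 or elsewhere in Mir17hg. At the RNA level both hosts were among the more abundant genes, with a mean of 6.76 log2 CPM for Mir17hg (percentile 89.5 of all genes) and 8.69 for Mcm7 (percentile 98.6). Per kilobase of exon, the levels were 4.94 for Mir17hg and 6.55 for Mcm7 on the log2 scale. The other helicase subunits, Mcm2 to Mcm6, had levels per kilobase from 6.08 for Mcm2 to 7.13 for Mcm3, so Mcm7 lay within the range of its complex. For the X-linked cluster no host level is given, since the annotated Kis2 gene, chrX:52742563-52744960, reaches only the edge of Mir106a and holds neither listed site. These means have no replicate error and mix control with Drosha-deficient libraries.

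**Figure D1:**
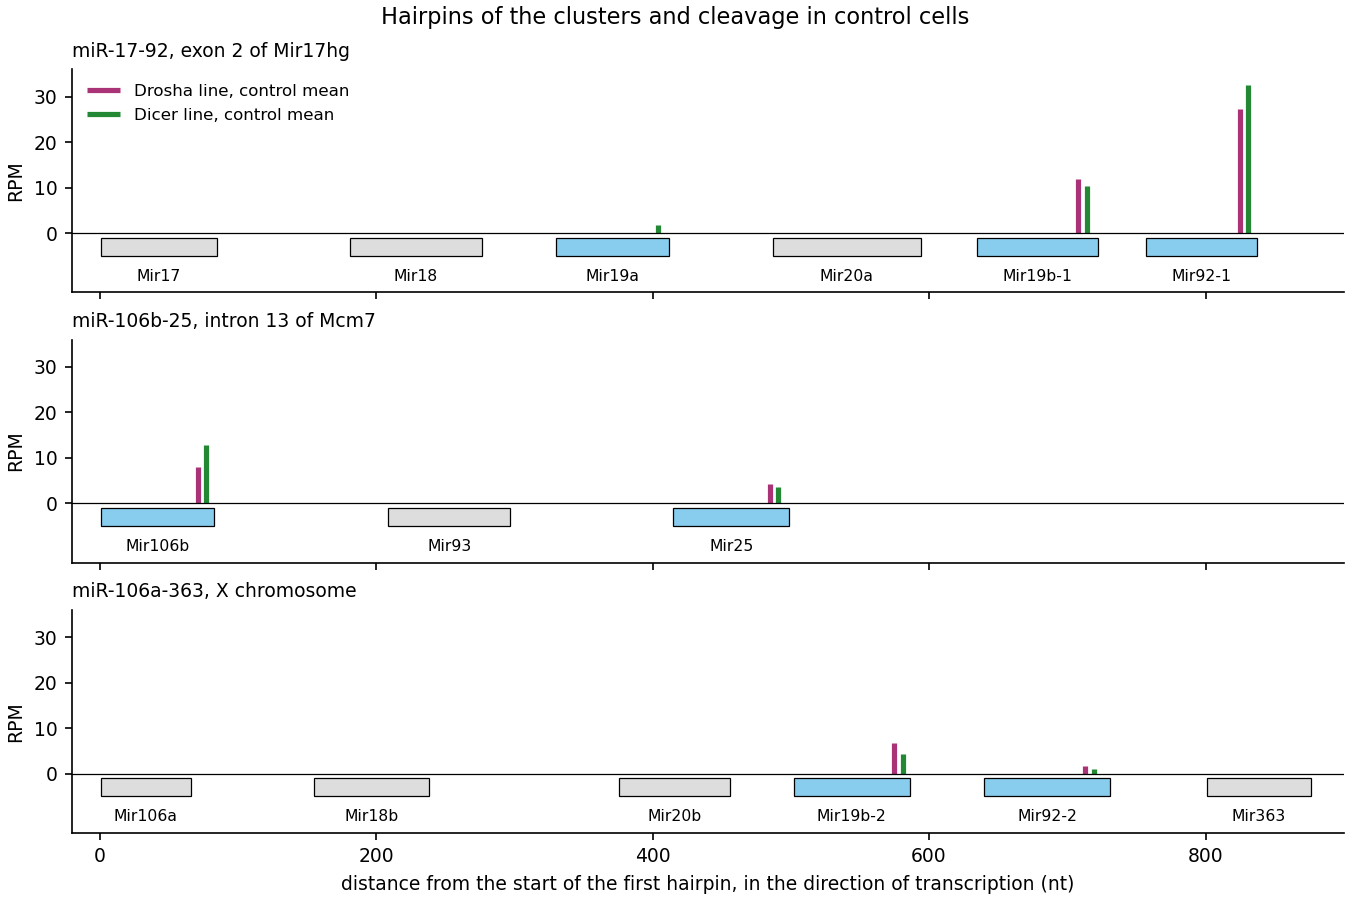
Stem-loops of the 3 paralogous clusters by distance from the start of the first stem-loop (nt), with the control mean RPM of each pile-up site as a bar on a linear axis, for the Drosha line and the Dicer line (mean of 2 libraries each). Blue boxes have a listed site and grey boxes have none, and the highest bars are at Mir92-1, the last stem-loop of miR-17-92.

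In control cells the deepest site of both hosts was Mir92-1. In the Drosha line it had 26.3 and 28.4 RPM, and it ranked 17 of 93 sites in annotated miRNA genes. Mir19b-1, 117 nt upstream, had 11.1 and 12.8 RPM and ranked 24. The intronic sites were lower, with 9.55 and 6.57 RPM at Mir106b and 4.88 and 3.83 RPM at Mir25, ranks 33 and 45. The order of these control means was the same in the Dicer line except that Mir106b, with 17.02 and 8.66 RPM, lay above Mir19b-1 in one library and below it in the other. In both lines the control values of Mir92-1 lay above those of every other cluster site, and the values of Mir106b and Mir19b-1 overlapped in the Dicer line. Depth can also depend on position, because a cut further downstream on the same RNA takes the polyA tail from an upstream fragment. Mir92-1 is the last stem-loop of its cluster and had the deepest site. In the other clusters the upstream listed site was the deeper in the controls of both lines, Mir106b over Mir25 and Mir19b-2 over Mir92-2. The part of position in these depths was not tested. The depths of the sites are not in the order of the hosts' RNA levels. Mir17hg had the lower level per kilobase and the deeper sites. In the controls of the Drosha line its 2 shared sites had 37.4 and 41.2 RPM, against 14.4 and 10.4 RPM in those of Mcm7. These are unlike measures, since the RNA levels are per kilobase of exon and mix control with Drosha-deficient libraries. The Mcm7 sites lie in introns of its coding transcripts. A link between host level and site depth was not tested.

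All 4 cluster sites of the Drosha table were lower in the Drosha-deficient cells, in both hosts. Every listed site had first been accepted as a pile-up in the control cells, a choice that can favour decreases over increases. By the test described below, 1473 sites of the table were called decreased and 375 increased. The part of this choice in those counts was not tested. The same choice applies to the Dicer table, including Mir19a, which is listed there only. At Mir19b-1, the control libraries had 11.1 and 12.8 RPM (319 and 375 reads) and the Drosha-deficient libraries 1.39 and 1.63 RPM (43 and 47 reads). At Mir92-1, 26.3 and 28.4 RPM stood against 7.32 and 5.46 RPM. Both Drosha-deficient libraries were far below both controls at each of these exonic sites, and libraries of 1 group lay close together. At Mir106b, the controls had 9.55 and 6.57 RPM and the Drosha-deficient libraries 1.35 and 2.54 RPM. At Mir25, 4.88 and 3.83 RPM stood against 1.87 and 0.660 RPM. The intronic sites were also separated without overlap, but their Drosha-deficient libraries differed more from each other, and no library was below the floor of 3 reads.

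The change was tested with limma on log2 of RPM plus 0.1, with Benjamini-Hochberg adjustment (FDR) across the 3919 sites, and a site was called decreased at an FDR under 0.05 with a log2 fold change below −1.5. Mir19b-1 fell from 11.98 ± 1.21 to 1.51 ± 0.174 RPM (mean ± SD, n = 2), a log2 fold change of −2.91 (SE 0.37, limma FDR 1.76e-05). Mir92-1 fell from 27.3 ± 1.44 to 6.39 ± 1.32 RPM, with a log2 fold change of −2.09 (SE 0.34, limma FDR 9.49e-05). What remained was 12.6% of the control mean at Mir19b-1 and 23.4% at Mir92-1. Mir106b fell from 8.06 ± 2.11 to 1.95 ± 0.836 RPM, by a log2 fold change of −2.03 (SE 0.41, limma FDR 0.000549). Mir25 fell from 4.36 ± 0.742 to 1.27 ± 0.856 RPM, by a log2 fold change of −1.85 (SE 0.47, limma FDR 0.00279). These intronic sites kept 24.1% and 29.1% of their control means.

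All 4 sites were called decreased, where the share of all sites called decreased was 37.6%, and 4 of 4 were lower without overlap, where that share was 59.9%. Among the 93 sites in annotated miRNA genes, 63 (67.7%) were called decreased and 81 were lower without overlap, so such falls were common at miRNA stem-loops. The median log2 fold change was −2.06 over the cluster sites, −1.97 over the 93 sites in annotated miRNA genes and −0.93 over all sites. Measured from the median of all sites, Mir19b-1 was lower by a log2 difference of −1.98, Mir92-1 by −1.16, Mir106b by −1.10 and Mir25 by −0.92. When each library was instead centred on its median site, Mir19b-1 (−2.31) and Mir92-1 (−1.501) were still called, and Mir106b (−1.44) and Mir25 (−1.26) kept an FDR under 0.05 but no longer passed the fold threshold. Leaving out a library leaves 1 library in its group, which is then assumed to vary like the other group, and costs a degree of freedom. Without the first control library, Mir106b (log2 fold change −1.77, limma FDR 0.0592) and Mir25 (−1.68, limma FDR 0.117) stayed past the fold threshold but not the FDR threshold, so 2 of the 4 sites were called. Mir25 missed the FDR threshold without the second control library too (−2.02, limma FDR 0.0716), and missed the fold threshold without the second Drosha-deficient library (−1.17) and with a pseudocount of 1 RPM (−1.29).

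**Figure D2:**
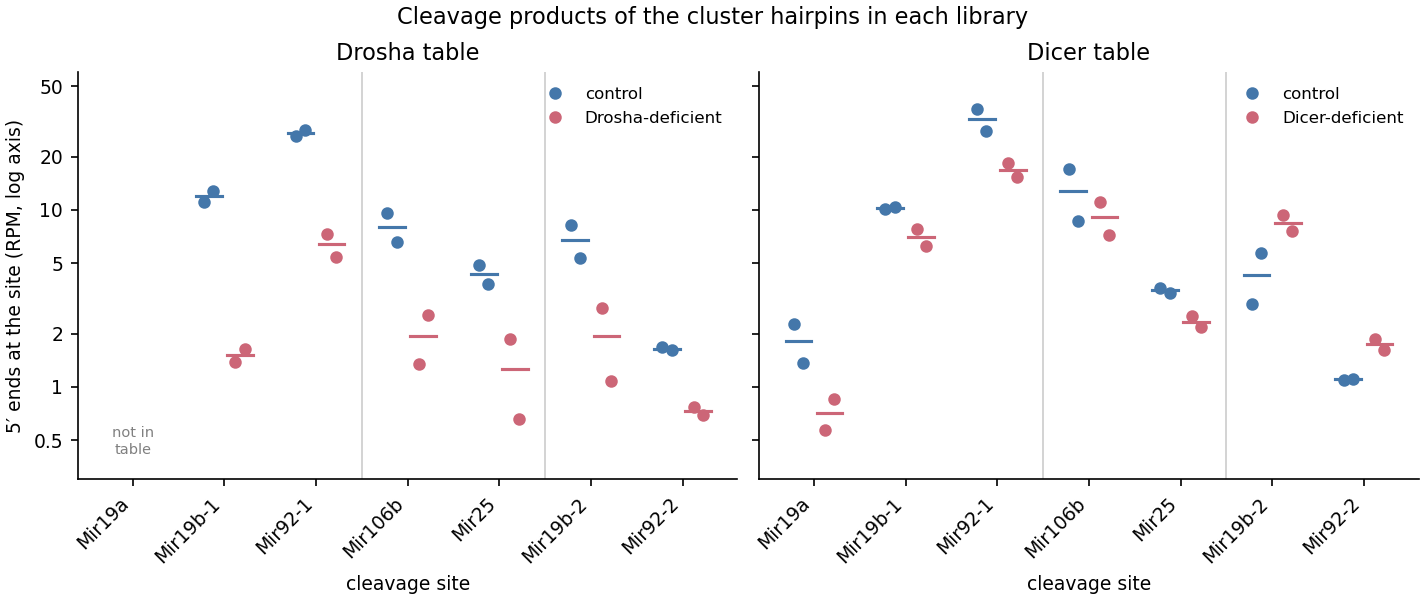
RPM (log axis) at each site in every library of the Drosha table (left) and the Dicer table (right). Points are libraries, 2 per group, short lines are group means, and grey lines separate the Mir17hg, Mcm7 and miR-106a-363 sites. The Drosha-deficient points lie under the control points at every site shown, while in the Dicer table the cluster points of Mir106b overlap and the miR-106a-363 points are higher in deficient cells.

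Within Mir17hg, the ratio of the neighbouring stem-loops was compared library by library. Reads at Mir92-1 exceeded those at Mir19b-1 by a ratio of 2.37 and 2.21 in the control libraries and of 5.28 and 3.34 in the Drosha-deficient libraries. The groups did not overlap, with an exact permutation p of 0.333, the smallest that 2 against 2 libraries allow. In the Dicer line the same ratio went the other way, from 3.67 and 2.68 to 2.38 and 2.43, also without overlap (exact permutation p = 0.333). Within Mcm7, the ratio of Mir106b to Mir25 was 1.96 and 1.71 in the Drosha controls and 0.724 and 3.84 in the Drosha-deficient libraries, which overlap. Between hosts, the ratio of the Mir17hg sites to the Mcm7 sites was 2.59 and 3.96 in the controls and 2.70 and 2.22 after loss of Drosha, again with overlap, and it overlapped in the Dicer line as well (2.29 and 3.18 against 1.92 and 2.30). A difference between the exonic and the intronic host could not have been detected, since 2 against 2 libraries allow no permutation p under 0.333.

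The 4 cluster sites were also set against all annotated miRNA genes. Together they took 1.94% and 2.05% of the RPM in annotated miRNA genes in the controls and 2.24% and 1.86% in the Drosha-deficient libraries. The groups overlapped, so a change in this share was not detected. The X-linked paralogs were lower as well. Mir19b-2 had 8.23 and 5.34 RPM in the controls and 2.81 and 1.08 RPM in the Drosha-deficient libraries, and was called decreased (log2 fold change −1.86, SE 0.45, limma FDR 0.00204). This call was lost after centring (−1.27), with a pseudocount of 1 RPM (−1.44), and without the first control, the second control or the second Drosha-deficient library, with values from −2.51 to −1.21 over the libraries left out. Mir92-2 had 1.67 and 1.61 RPM against 0.774 and 0.695 RPM, and missed the threshold (log2 fold change −1.06, SE 0.46, limma FDR 0.0552). Its groups did not overlap, and its change was close to the median of all sites.

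Loss of Dicer, which acts after the Drosha cut, gave smaller and uncalled differences at the clusters. At Mir92-1 the control libraries had 37.2 and 27.9 RPM and the Dicer-deficient libraries 18.5 and 15.3 RPM. At Mir19b-1 they had 10.1 and 10.4 against 7.77 and 6.29 RPM. Mir19a, a stem-loop listed in the Dicer table only, had 2.26 and 1.37 against 0.574 and 0.855 RPM. All 3 exonic sites were lower in both Dicer-deficient libraries than in either control. At Mir25 the values were 3.62 and 3.41 against 2.50 and 2.17 RPM, lower without overlap as well. At Mir106b they were 17.02 and 8.66 against 11.1 and 7.21 RPM. The groups overlapped at Mir106b, where the second control library lay between the deficient ones.

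With limma adjusted over 4666 sites, 0 of the 5 cluster sites were called, as were 0% of all sites. At an unadjusted p under 0.05, limma gave 459 sites in all and 1 cluster site, Mir92-1, and the edgeR quasi-likelihood test on whole reads also called 0 sites. The log2 fold changes were −1.21 at Mir19a (SE 0.53, limma FDR 0.507), −0.94 at Mir92-1 (SE 0.32, limma FDR 0.469), −0.55 at Mir19b-1 (SE 0.33, limma FDR 0.572), −0.57 at Mir25 (SE 0.38, limma FDR 0.591) and −0.43 at Mir106b (SE 0.45, limma FDR 0.719). Their median was −0.57, against −0.12 over all sites and −0.10 over the 79 sites in annotated miRNA genes. In all, 4 of 5 sites were lower without overlap, where the share of all sites was 27.4%, and 30 of the 79 sites in annotated miRNA genes were. Without the first control library the value of Mir106b turned to 0.051, so its direction rests on that library.

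The X-linked paralogs stood on the other side of their controls in the Dicer line. Mir19b-2 had 2.92 and 5.68 RPM in the controls, against 9.32 and 7.58 RPM in the Dicer-deficient cells. Mir92-2 had 1.10 and 1.11 RPM against 1.86 and 1.62 RPM. Both were higher without overlap, where 16.8% of all sites were, and neither was called, with log2 fold changes of 1.02 (SE 0.43, limma FDR 0.507) and 0.61 (SE 0.45, limma FDR 0.622). The sum of the 4 shared cluster sites was 16.9 and 7.42 times that of the X-linked sites in the Dicer controls and 3.57 and 3.37 times in the Dicer-deficient libraries. The ratio of Mir19b-1 to Mir19b-2, the stem-loops that make the same miR-19b-3p, was 3.47 and 1.84 in these controls and 0.833 and 0.831 in the Dicer-deficient libraries. For Mir92-1 over Mir92-2, which make the same miR-92a-3p, it was 33.8 and 25.2 against 9.95 and 9.43. All 3 ratios were lower in the Dicer-deficient libraries without overlap (exact permutation p = 0.333 each, the smallest possible). The mean log2 ratios were also lower in the Drosha line. There the sum ratio was 5.24 and 7.43 in the controls and 3.33 and 5.80 in the Drosha-deficient libraries, with overlap. For Mir19b-1 over Mir19b-2 it was 1.35 and 2.40 against 0.494 and 1.52, with overlap, and for Mir92-1 over Mir92-2 it was 15.7 and 17.6 against 9.46 and 7.85, without overlap (exact permutation p = 0.333). Whether these ratios changed more in one line than in the other was not tested. The share of the 4 sites in the RPM of annotated miRNA genes was also lower, at 2.52% and 2.54% in the controls and 1.61% and 1.48% in the Dicer-deficient libraries (exact permutation p = 0.333).

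**Figure D3:**
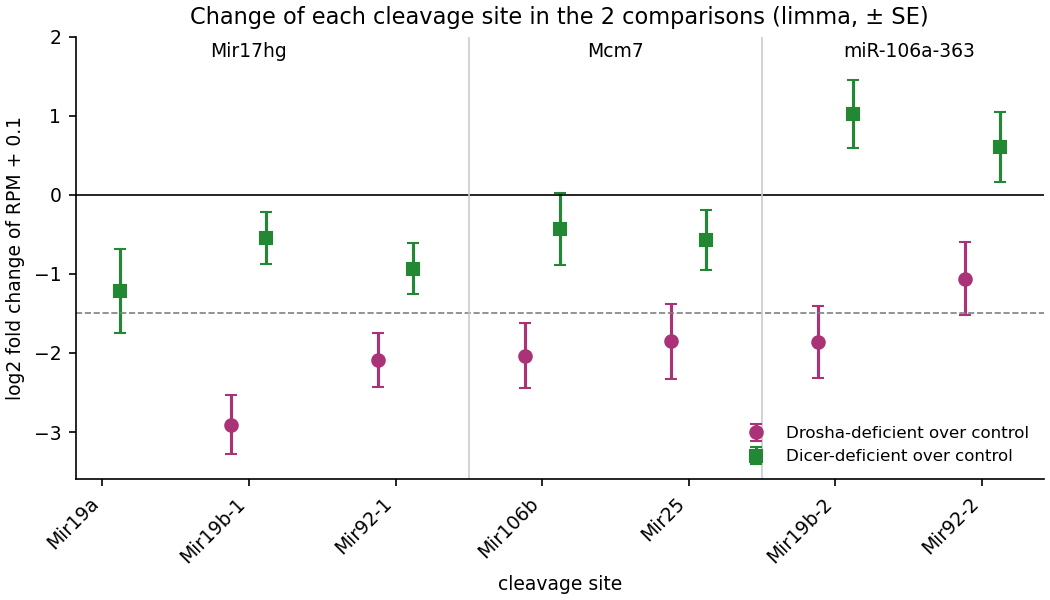
Log2 fold change of RPM plus 0.1, deficient over control, at each site in the Drosha comparison (circles) and the Dicer comparison (squares), with the SE from limma as bars. The dashed line is the fold threshold of −1.5, and Mir19a has no Drosha value. The Drosha values run from −2.91 to −1.06 and the Dicer values from −1.21 to 1.02.

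Whether the effect of losing Drosha differed from that of losing Dicer was tested as an interaction in limma over the 2595 sites in both tables, with different control cells on each side. At Mir19b-1 the difference, Drosha minus Dicer, was −2.36 on the log2 scale (SE 0.45, limma FDR 0.0295), so this site fell further without Drosha. At Mir92-1 it was −1.16 (SE 0.45, limma FDR 0.104), at Mir106b −1.60 (SE 0.67, limma FDR 0.117) and at Mir25 −1.28 (SE 0.69, limma FDR 0.196). The differences had the same sign at all 4 sites, and 1 of 4 passed the FDR threshold, where 4.78% of the shared sites did. The median difference over the shared sites was −0.46. The call at Mir19b-1 was lost when any library other than the first Dicer control or the second Dicer-deficient library was left out, with values from −2.51 to −2.21 and FDR from 0.0106 to 0.134 over the 8 fits. Without the first Dicer control library, Mir106b (FDR 0.0337) and Mir92-1 (FDR 0.048) passed in limma as well. The X-linked sites had differences of −2.89 at Mir19b-2 (SE 0.73, limma FDR 0.0562) and −1.67 at Mir92-2 (SE 0.65, limma FDR 0.105), which did not pass, although Mir19b-2 did without the first Dicer control (FDR 0.0305) or the second Dicer-deficient library (FDR 0.0393).

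**Figure D4:**
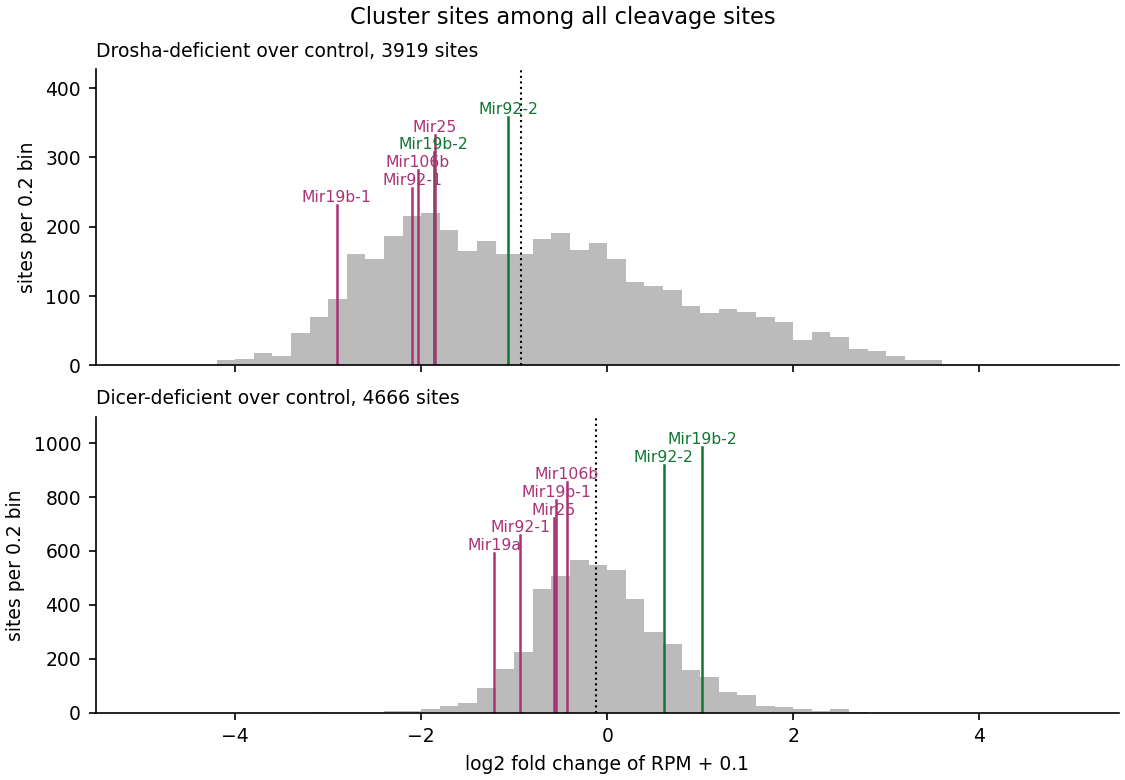
Histogram of the log2 fold change of all sites in bins of 0.2, for 3919 sites of the Drosha table (top) and 4666 sites of the Dicer table (bottom), with the cluster sites in purple and the miR-106a-363 sites in green. The dotted line is the median of all sites, −0.93 and −0.12. The cluster sites lie to its left in both panels, and the miR-106a-363 sites lie to its right in the lower panel.

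Downstream of the clusters, a target list of 18 genes known for these seed families, including the apoptosis gene Bcl2l11, was searched for cleavage sites. Plekhm1, a lysosome adaptor whose mRNA is a known substrate of Argonaute2 slicing, held the single site, in both tables. The authors had already reported a Drosha-dependent site in this mRNA from the same data. The list was made with that known, so the Plekhm1 site is not an independent find. The site lies at chr11:103366173 on the minus strand, in the untranslated part of exon 12 of 12. The target window of 21 bases is shown on the transcribed strand, because it pairs with the AAAGUGC family, with the captured fragment in capitals.
Plekhm1, chr11:103366164-103366184: accagcactgtCAGCACTTTG
All 6 miRNAs of the AAAGUGC family in the 3 clusters pair with it at 7 of 7 seed bases. At bases 9 to 12, which flank the cut, miR-106b-5p pairs at 4 of 4, miR-17-5p and miR-106a-5p at 3, and miR-20a-5p, miR-20b-5p and miR-93-5p at 2. The fragment begins opposite base 10 of each, the usual place of an Argonaute2 cut. Other miRNA families were not compared, and which miRNA guides the cut was not tested.

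In the Drosha line the Plekhm1 site had 2.65 and 2.29 RPM in the controls and 0.194 and 0.417 RPM in the Drosha-deficient libraries, and it was called decreased (log2 fold change −2.72, SE 0.51, limma FDR 0.00027), a call lost with a pseudocount of 1 RPM (−1.41). In the Dicer line it had 2.58 and 1.22 RPM in the controls, against 0.101 and 0.122 RPM (3 and 4 reads) in the Dicer-deficient cells. Its log2 fold change of −3.15 (SE 0.68, limma FDR 0.465) was not called. With 3 and 4 reads in the deficient libraries, its size depends on the pseudocount, and it was −1.34 with 1 RPM. Unlike Mir19b-1, Plekhm1 gave no detectable difference between the lines (0.43, SE 0.97, limma FDR 0.767). Of the 4 genes listed as regulators of the hosts, Myc, Mycn, E2f1 and E2f3, none had a site.

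Among the 10 genes of the MCM list, which includes the helicase subunits, Mcm7 itself was named at a site in both tables, the one at Mir25. The deposited annotation of the Mir106b site names Mir106b alone, although that site also lies in an intron of Mcm7. The Dicer table also held a site in Mcm3, in coding exon 6 at chr1:20814432, with 1.77 and 0.845 RPM in the controls, against 0.743 and 0.428 RPM in the Dicer-deficient cells (log2 fold change −0.99, SE 0.62, limma FDR 0.574). Both deficient libraries were lower than both controls, and the site was not called. The remaining 8 genes of the list had no site in either table.

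The sites whose pattern was most like the summed RPM of the 4 shared cluster sites were found among 2534 other sites with a mean of at least 1 RPM, by Pearson correlation of log2 values over the 8 libraries. These libraries share their groups and depth, so the values are descriptions only. Sites in annotated miRNA genes are few, 93 of 3919 in the Drosha comparison and 79 of 4666 in the Dicer comparison. The 5 highest correlations ran from 0.983 to 0.986. None of these 5 sites was in an annotated miRNA gene, a count that so small a share leaves uninformative. One lay in Ywhah, a 14-3-3 adaptor gene (r = 0.983, mean 46.8 RPM), another in Nisch (r = 0.983, mean 1.06 RPM), and 3 had no gene named, at chr10:40251158, chr10:75532202 and chr12:69303573.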

How the data were processed

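The authors trimmed the Degradome-seq reads with Trimmomatic 0.38.0, aligned them to GRCm38 with STAR, counted read starts, kept pile-up sites found by their classifier in control cells, and deposited RPM per library without pooling replicates. For RNA-seq, the authors deposited the mean log2 CPM over 6 libraries. The edgeR fold changes, F statistics, p-values and FDR that the authors deposited beside these values hold their own comparisons and were not used, so no direction is given for host RNA. Members, lists and tests were chosen with earlier results of these data known.

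Log2 of RPM plus 0.1 was tested with limma 3.58.1 (two-sided, mean-variance trend, Benjamini-Hochberg over every site of a table) in R 4.3.3, and ratios with exact two-sided permutation tests in scipy 1.17.1. RPM steps gave whole reads within 0.1 read for 100% of values, so edgeR 4.0.16 was run on them as an alternative, with the mapped reads as library sizes. Depth was 28682300 to 34547609 mapped reads. The code was tested on simulated data. The named items are every site in the member genes, the miR-106a-363 sites, listed genes with a site (MCM, targets, regulators) and the 5 sites most like the summed members. Placement used GENCODE vM21, and miRNA sequences came from RefSeq, both on GRCm38. The 2 sites on unplaced sequences were left out of the motif search. Alternatives changed scaling, pseudocount, filter, trend, replicate block, threshold, tool and libraries.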

Additional observations from a re-analysis of the deposited data

Results flagged for a closer look

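The response at Mir19b-1 differed between the lines by the test of the difference itself. Its log2 fold change was −2.91 after loss of Drosha and −0.55 after loss of Dicer, a difference of −2.36 (SE 0.45, interaction in limma, FDR 0.0295). Both comparisons had both deficient libraries under both controls, as had 59.9% of all sites in the Drosha comparison and 27.4% in the Dicer comparison. The difference between the lines does not show a fall after loss of Dicer, since the Dicer change alone was not called (limma FDR 0.572). It was past the threshold in 7 of 14 alternative fits, and the line and the way the gene was deleted cannot be told apart. Groups of 2 libraries were too small to look for single libraries far from the rest.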

How the results depend on the processing

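Of the 4 cluster sites called decreased in the Drosha line, 2 were called after centring each library on its median site and 2 to 4 when a library was left out; all sites called decreased numbered 1473, 871 after centring, 548 with a pseudocount of 1 RPM and 907 without the first control library, and those called increased rose from 375 to 602 after centring. In the Dicer line 0 of 5 cluster sites were called in every alternative run, the log2 difference at Mir106b turned to 0.051 without the first control library (−0.92 to 0.051 over the libraries left out), and over all sites 1 was called decreased and 13 increased without the second Dicer-deficient library. The count of cluster sites that differed between the lines was 1, fell to 0 without the mean-variance trend, and ran from 0 to 3 when a library was left out, and the count over all shared sites went from 124 to 387 after centring, 3 without the trend, 79 with edgeR on whole reads, and 0 to 969 when a library was left out. Plekhm1 turned to −0.071 in that difference with a pseudocount of 1 RPM, and ran from −0.073 without the first Dicer control library to 0.94 without the second.

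The labels do not say whether libraries with the same replicate number were paired. Deviations from the group means at the same number correlated at 0.13 in the Drosha table and 0.53 in the Dicer table, with 2 pairs each. With a replicate block, 4 of 4 cluster sites were called in the Drosha line and 0 of 5 in the Dicer line, where 67 sites in all were called decreased, Plekhm1 among them, and 119 increased, and 4 of 4 differed between the lines, as did 1320 of all shared sites. The causes of these shifts were not tested. With 2 libraries a group, a difference at sites under about 1 RPM rests on few reads.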
